A study of Danio rerio with 6 samples.

Results

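The genes described here are the zebrafish (Danio rerio) genes of the Wnt signalling pathway that act at the cell surface and at its ends: the Wnt ligands, their Frizzled receptors and Lrp co-receptors, the secreted antagonists of the Sfrp, Dkk and Notum families, the scaffold proteins Axin1 and Axin2, and the Tcf/Lef transcription factors. They were chosen by symbol alone, as every line of the deposited table whose symbol, in lower case, begins with wnt, fzd, sfrp or dkk and a digit, with axin1, axin2, tcf7 or notum, or is lef1, lrp5 or lrp6. This gave 58 of the 31624 genes in the table: 26 Wnt ligands, 11 Frizzled receptors, 2 Lrp co-receptors, 4 secreted Frizzled-related proteins, 5 Dickkopf proteins, 3 Notum genes, 2 Axins and 5 Tcf/Lef factors. The rule itself uses no measured value, though it was set with earlier results of these data known. WNT7A (1 of many) and FZD9 (1 of many), written in capitals, fall outside it.

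Messenger RNA was sequenced in 6 libraries from zebrafish embryos, 3 labelled Trdmt1 knockout and 3 controls labelled wildtype, to examine what the gene does. Trdmt1 is an RNA methyltransferase best known for methylating transfer RNAs. The embryos' age and strain, the kind of knockout allele and whether embryos were pooled are not given in the sources used here. Separate clutches or cultures are not named either, and the p-values below therefore reflect nothing beyond how these 6 libraries vary, which may be technical.

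Wnt proteins are secreted, lipid-modified signals. A Wnt that binds a Frizzled receptor together with Lrp5 or Lrp6 stops the Axin-containing destruction complex from degrading beta-catenin, which then acts with Tcf/Lef factors on target genes. Other Wnts act through Frizzled without beta-catenin and steer cell polarity and movement. In fish embryos the pathway patterns the body axis and the brain and drives the growth of tail, fins and other organs. Several of its antagonists, and axin2 above all, are themselves switched on by the pathway and feed back on it.

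Libraries differed in ways that bear on all values below. Reads counted in genes totalled 15191166 to 16085068 in the knockout libraries and 12877132 to 18721589 in the controls. Knockouts 1 and 2 were nearly alike, with a chi-square per degree of freedom of 1.58 over genes, against 11.7 to 75.6 in the other library pairs. Summing both into 1 sample gave no call among the 55 Wnt genes then tested, where 0.0754% of all 21230 tested genes were called. With so few calls this says little about the Wnt genes. Knockout 3 stood apart: its 9 photoreceptor markers summed to 888 RPKM (reads scaled by exonic length and library total), against 24.0 and 29.6 RPKM in knockouts 1 and 2 and 63.6 to 94.98 RPKM in the controls. Its 8 exocrine pancreas markers summed to 146 RPKM, against 10.9 to 14.3 RPKM in knockouts 1 and 2 and 9.45 to 20.1 RPKM in controls. The 3 notochord markers found summed to 910 RPKM in knockout 3, against 264 and 268 RPKM in knockouts 2 and 1 and 246 to 400 RPKM in controls. All 3 were at their highest in knockout 3, but col2a1a made up most of the sum, at 717 RPKM, and shha only 9.78 RPKM. The 6 tail bud markers found summed to 14.1 RPKM in knockout 3, against 6.69 and 7.62 RPKM in knockouts 2 and 1 and 7.15 to 8.21 RPKM in controls. Most of the sum in knockout 3 was ta, at 9.36 RPKM there against 1.52 to 3.68 RPKM in the other libraries. The markers cdx4 and msgn1 were also at their highest in knockout 3, fgf8a and tbx16 at their lowest, and tbx6 in between. Markers of epidermis, muscle, neural progenitors, fin fold and hatching gland, all tissues of an embryo, were above 0 in every library. The transcript of the targeted gene, trdmt1, stood at 1.59, 1.40 and 1.07 RPKM in knockouts 1, 2 and 3 and at 3.10, 2.60 and 1.08 RPKM in controls 1, 2 and 3. Control 3 lay within the knockout range, and the difference did not pass the test (log2 fold change -0.70 ± 0.38 SE, edgeR adjusted p = 0.746), so the level of this transcript does not check the labels.

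No Wnt pathway member passed the test between knockout and control embryos. The fitted changes were small and went both ways. Of the 58 members, 54 had enough reads to be tested, and 27 had a positive and 27 a negative log2 fold change of knockout over control. Their median was -0.01, against -0.0038 over all 20555 tested genes, and the range ran from -0.65 for sfrp1b to 0.64 for notum1b. Negative values made up 50.5% of all tested genes, and 85.2% of the members, beside 85.9% of all tested genes, lay within 0.5 of no change. By edgeR's quasi-likelihood test with Benjamini-Hochberg adjustment at 0.05, none of the 54 was called, where 0.117% of all tested genes were. The smallest adjusted p of any member was 0.723. None of the 54 reached an unadjusted p under 0.05 by edgeR either, where 7.47% of all tested genes did. DESeq2 called none of 55 members, where it called 1.03% of all tested genes, and gave none of them an unadjusted p under 0.05, where 6.83% of all tested genes had one.

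These results do not show that the genes were equal in both groups. The 95% interval of the log2 fold change lay wholly between -1 and 1, and so excluded a 2-fold change either way, in 39 of the 54 members (72.2%, against 70.5% of all tested genes). In 15 members it lay within 0.5 of no change (27.8%, against 18.2% of all tested genes). These intervals are per gene and not adjusted for the number of genes. They count knockouts 1 and 2, which were nearly alike, as separate samples, and would be too narrow if these were technical repeats. In bulk libraries of whole embryos, fewer cells that express a gene and less of its RNA per cell cannot be told apart.

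**Figure D1:**
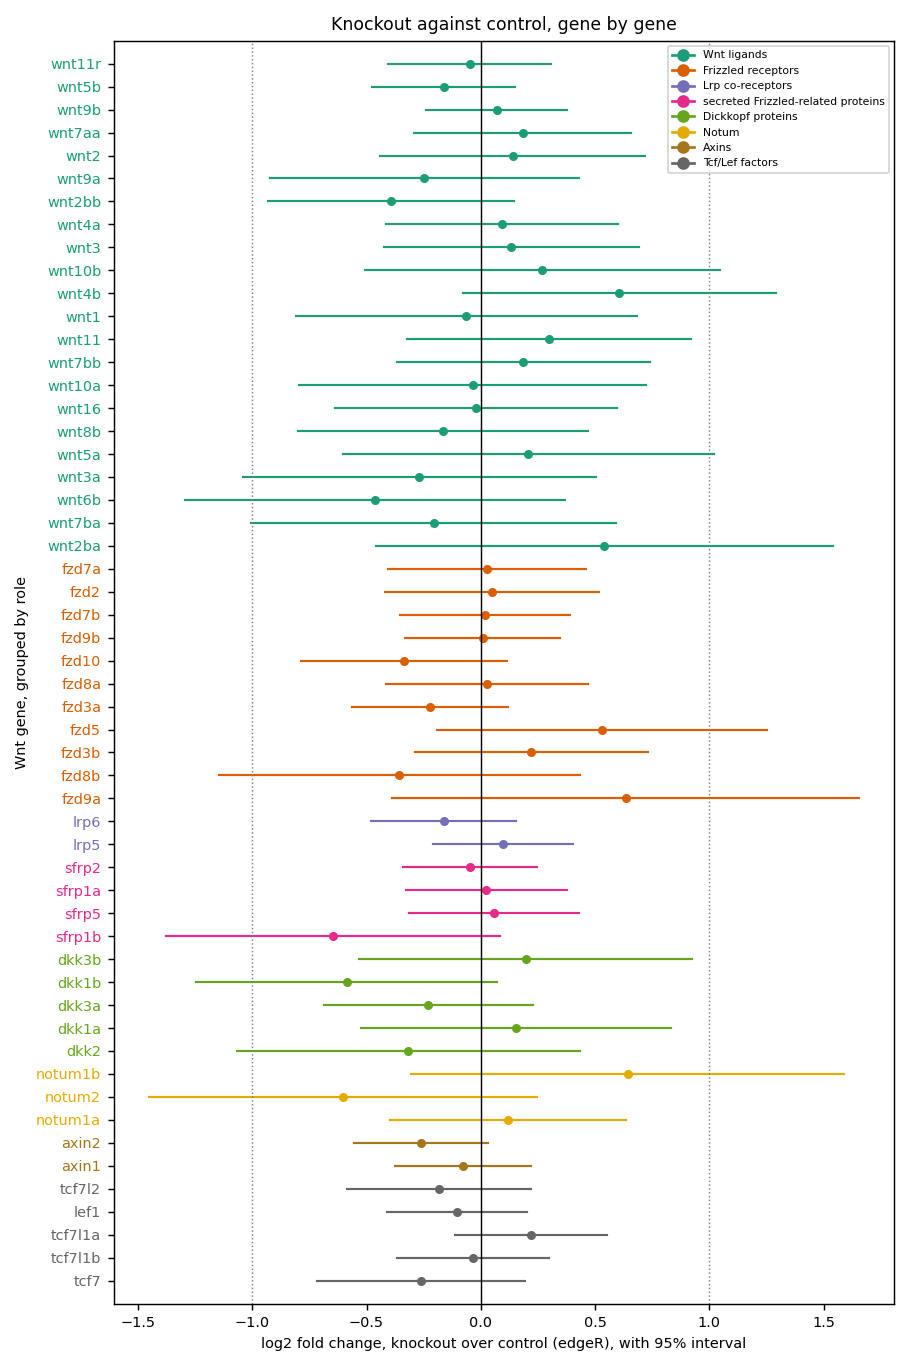
Log2 fold change of knockout over control for each of the 54 tested members (points, edgeR) with its 95% interval (lines), on the horizontal axis, for genes down the page coloured by role; dotted lines mark a 2-fold change. Every interval crosses 0, and 39 lie wholly between the dotted lines.

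Per length, wnt11r was the most abundant ligand transcript, with 25.9, 27.8 and 34.4 RPKM in knockouts 1, 2 and 3 and 33.7, 32.6 and 27.3 RPKM in controls 1, 2 and 3. Its log2 fold change was -0.05 ± 0.16 (SE). Next came wnt5b, the ligand lost in the pipetail mutant and needed for cell movements in gastrulation, at 17.8 ± 0.968 RPKM in knockouts and 20.5 ± 1.92 RPKM in controls (SD, n = 3 each). The third was wnt9b, at 14.9 ± 0.364 RPKM in knockouts and 14.6 ± 0.286 RPKM in controls. These 3 ligands alone had a mean over the 6 libraries of 10 RPKM or more. Another 14 lay between 1 and 10 RPKM, and 9 lay below 1 RPKM.

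The ligand with the smallest p was wnt4b, a second zebrafish copy of Wnt4. It had 2.50, 1.91 and 4.39 RPKM in knockouts 1, 2 and 3 and 1.92, 1.73 and 2.28 RPKM in controls 1, 2 and 3. Knockout 3 was the high library, and knockout 2 lay among the controls. The log2 fold change was 0.61 ± 0.30 (SE, edgeR adjusted p = 0.723), and without knockout 3 it was 0.20. The gene wnt2bb, whose product is needed to specify the liver in zebrafish, had 2.59, 3.17 and 2.42 RPKM in knockouts 1, 2 and 3 and 3.90, 3.52 and 3.63 RPKM in controls 1, 2 and 3. All its knockout libraries lay below all controls, yet the difference of -0.39 ± 0.24 on the log2 scale did not pass (SE, edgeR adjusted p = 0.763). Its sister copy wnt2ba was rarer and went the other way, at 0.737 ± 0.180 RPKM in knockouts and 0.510 ± 0.234 RPKM in controls (SD, n = 3 each). The low ligand wnt6b stood at 0.720 ± 0.151 RPKM in knockouts and 1.03 ± 0.250 RPKM in controls (SD, n = 3 each), with groups that overlapped.

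The remaining ligands give a picture of which Wnt signals were measured at all. The midbrain ligand genes wnt1 and wnt10b averaged 2.40 and 2.60 RPKM over the 6 libraries. These 2 genes neighbour each other in the GRCz12tu assembly, where their annotated spans overlap, so reads of one may have been counted for the other. Other neighbours in that assembly are wnt3a with wnt9a, at 0.91 and 3.72 RPKM, and wnt6b with wnt10a, at 0.873 and 1.59 RPKM. In single libraries wnt1 and wnt10b were close in control 1, at 3.31 and 3.25 RPKM. They differed in knockout 3, at 1.45 and 2.91 RPKM, and in control 2, at 2.46 and 1.41 RPKM. Whether neighbours shared reads was not tested. The gene wnt11, lost in the silberblick mutant, averaged 2.35 RPKM over the 6 libraries. The rare ligands included wnt5a at 0.988 RPKM and wnt3a at 0.91 RPKM. Of the 4 members with too few reads for the test, wnt6a had 8, 9 and 18 reads in knockouts 1, 2 and 3 and 7, 12 and 2 reads in controls 1, 2 and 3. The other 3 were lines with the symbol wnt8a, the gene for a ligand of early mesoderm patterning. One had no read in any library, and the other 2 had 1 to 4 reads in knockouts and 1 to 8 reads in controls. The lines may share reads, so their single values are uncertain.

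**Figure D2:**
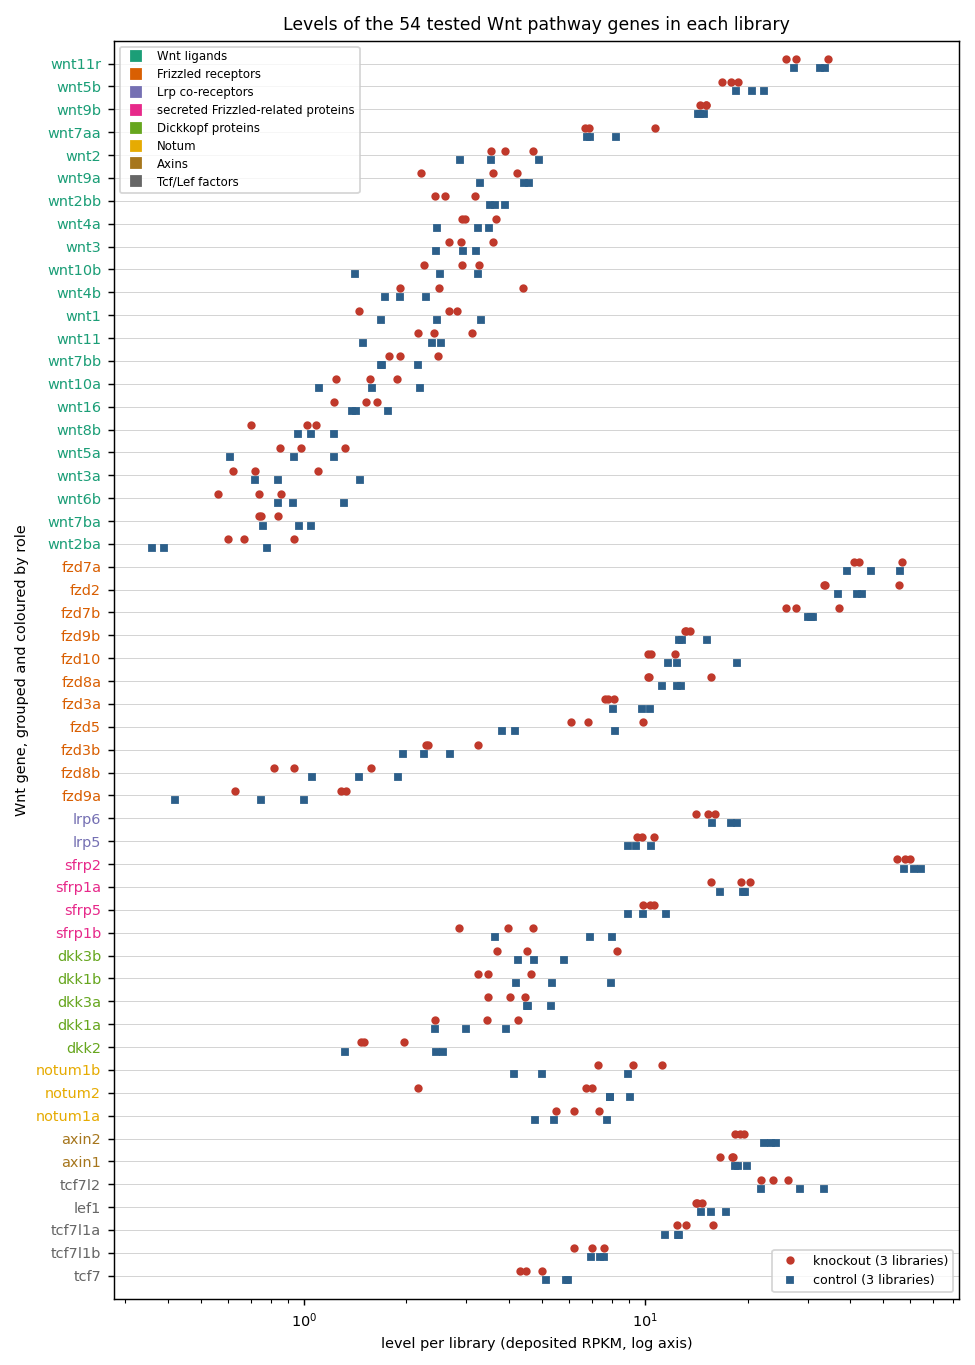
Level of each of the 54 tested members in each library, in deposited RPKM on a log axis, for genes down the page grouped and coloured by role and ordered by mean level; red circles are the 3 knockout libraries and blue squares the 3 controls. The symbols of the 2 groups overlap in all but 6 genes, and levels run from under 1 RPKM to the 59.3 RPKM mean of sfrp2.

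Frizzled genes were, as a family, more abundant than the ligands. Summed over the 11 receptors, the level was 160, 152 and 211 RPKM in knockouts 1, 2 and 3 and 196, 167 and 169 RPKM in controls 1, 2 and 3. The 26 ligands together summed to 104, 103 and 116 RPKM in knockouts and 119, 115 and 99.5 RPKM in controls. Knockout 3 had the highest receptor sum and knockout 2 the lowest, so the groups overlapped. Most of the sum came from fzd7a, fzd2 and fzd7b. The receptor gene fzd7a, which acts with non-canonical Wnts in gastrulation, had 42.4, 41.0 and 56.6 RPKM in knockouts 1, 2 and 3 and 56.1, 39.0 and 45.9 RPKM in controls 1, 2 and 3.

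Among the receptors, fzd10 had the smallest p. It stood at 12.2, 10.2 and 10.4 RPKM in knockouts 1, 2 and 3 and at 18.6, 12.4 and 11.7 RPKM in controls 1, 2 and 3, and control 1 was the high library. The log2 fold change was -0.34 ± 0.20 (SE, edgeR adjusted p = 0.760), and without control 1 it was -0.091. The eye-field receptor gene fzd5 had 6.81, 6.08 and 9.89 RPKM in knockouts 1, 2 and 3 and 8.20, 3.81 and 4.16 RPKM in controls 1, 2 and 3. Here control 1 lay among the knockouts. With all libraries the log2 fold change of fzd5 was 0.53 ± 0.32 (SE, edgeR adjusted p = 0.763), and without control 1 it was 0.97, still not past the test (edgeR adjusted p = 0.577). Without knockout 3, its highest library, it was 0.29. The gene fzd3a, a receptor of axon guidance, stood at 7.85 ± 0.228 RPKM in knockouts and 9.41 ± 1.21 RPKM in controls (SD, n = 3 each). The rare fzd9a stood at 1.08 ± 0.393 RPKM in knockouts and 0.723 ± 0.291 RPKM in controls (SD, n = 3 each).

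The co-receptor genes were steadier. The gene lrp6 had 16.0, 15.3 and 14.2 RPKM in knockouts 1, 2 and 3 and 15.7, 18.7 and 17.8 RPKM in controls 1, 2 and 3. Its close relative lrp5 had 9.80, 9.49 and 10.6 RPKM in knockouts and 8.93, 10.4 and 9.42 RPKM in controls. Both had overlapping groups, with log2 fold changes of -0.16 ± 0.14 for lrp6 and 0.10 ± 0.14 for lrp5 (SE, edgeR adjusted p = 0.826 and 0.899).

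The secreted antagonists held the most abundant member and both the lowest and the highest log2 fold change, those of sfrp1b and notum1b. The receptor gene fzd9a (0.63) and the ligand gene wnt4b (0.61) lay close to the highest. The Sfrp proteins bind Wnts outside the cell. Of these, sfrp2 had the highest level of all 58 members, at 58.0, 54.9 and 59.6 RPKM in knockouts 1, 2 and 3 and 61.5, 64.4 and 57.5 RPKM in controls 1, 2 and 3. Its log2 fold change of -0.05 had a 95% interval of -0.34 to 0.24. The genes sfrp1a and sfrp5 were as close between groups, with log2 fold changes of 0.02 ± 0.16 and 0.06 ± 0.17 (SE). The gene sfrp1b had the lowest log2 fold change of the 54, -0.65 ± 0.32 (SE, edgeR adjusted p = 0.726). It had 4.71, 2.85 and 3.97 RPKM in knockouts 1, 2 and 3 and 3.64, 8.01 and 6.92 RPKM in controls 1, 2 and 3. Control 1 lay among the knockouts, and without control 1 the log2 fold change was -0.91 (edgeR adjusted p = 0.616). It was -0.43 without control 2 and -0.47 without knockout 2.

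Dkk1 and Dkk2 bind Lrp5 and Lrp6, and Dkk1 blocks them, whereas Dkk3 is a relative with no settled part in Wnt signalling. The head-inducing antagonist gene dkk1b had 3.24, 3.46 and 4.64 RPKM in knockouts 1, 2 and 3 and 7.95, 5.34 and 4.19 RPKM in controls 1, 2 and 3. Control 3 lay within the knockout range. The log2 fold change was -0.59 ± 0.29 (SE, edgeR adjusted p = 0.723). Without knockout 3 it was -0.76, with the smallest adjusted p of any member in any setting (edgeR adjusted p = 0.332), and without control 1, the high control, it was -0.29 (edgeR adjusted p = 0.887). The gene dkk3a had 3.47, 4.02 and 4.44 RPKM in knockouts 1, 2 and 3 and 4.51, 4.53 and 5.32 RPKM in controls 1, 2 and 3. Those groups did not overlap but nearly touched. Its copy dkk3b stood at 3.68, 4.50 and 8.30 RPKM in knockouts and 4.26, 5.78 and 4.72 RPKM in controls, with knockout 3 the high library. The gene dkk2 stood at 1.65 ± 0.280 RPKM in knockouts and 2.11 ± 0.684 RPKM in controls (SD, n = 3 each), and dkk1a at 3.37 ± 0.917 RPKM in knockouts and 3.11 ± 0.752 RPKM in controls.

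Notum is an enzyme that removes the lipid from Wnt proteins and so inactivates them. The gene notum2 had 6.74, 6.98 and 2.17 RPKM in knockouts 1, 2 and 3 and 7.88, 9.07 and 7.90 RPKM in controls 1, 2 and 3. All knockouts lay below all controls, with knockout 3 far below the rest. The log2 fold change was -0.60 ± 0.37 with it (SE, edgeR adjusted p = 0.763) and -0.23 without it (edgeR adjusted p = 0.561). The hatching gland gene he1a was low in the same library, at 15.0 RPKM in knockout 3 against 172 and 179 RPKM in knockouts 1 and 2 and 91.1 to 198 RPKM in controls. The 6 hatching gland markers did not go one way in knockout 3: he1a, he1b, klf17 and ctslb were at their lowest of the 6 libraries there, and cd63 and xbp1 at their highest. Over the whole list the sum was 310 to 457 RPKM in knockouts and 329 to 448 RPKM in controls, and its part in the notum2 values was not tested. The gene notum1a had 5.50, 6.18 and 7.32 RPKM in knockouts 1, 2 and 3 and 7.76, 5.43 and 4.75 RPKM in controls 1, 2 and 3. The line for notum1b has an exonic length of 150 bases and 8 to 27 reads per library, so its log2 fold change of 0.64 ± 0.42 (SE) rests on few reads. It ran from 0.47 to 1.03 when any 1 library was left out, and was highest without control 2.

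Axin2 is a scaffold of the destruction complex and a widely used readout of beta-catenin signalling. Its transcript had 19.5, 19.0 and 18.3 RPKM in knockouts 1, 2 and 3 and 24.3, 23.5 and 22.3 RPKM in controls 1, 2 and 3. Every knockout library was below every control, with little spread within a group. The means were 19.0 ± 0.584 RPKM in knockouts and 23.4 ± 1.00 RPKM in controls (SD, n = 3 each). Even so, the log2 fold change of -0.26 ± 0.13 (SE), with a 95% interval of -0.55 to 0.03, did not pass over all genes (edgeR adjusted p = 0.723). It was -0.28 to -0.23 when any 1 library was left out. Axin1, the constitutive scaffold, had 18.1, 17.97 and 16.6 RPKM in knockouts 1, 2 and 3 and 18.4, 19.9 and 18.8 RPKM in controls 1, 2 and 3. Its log2 fold change was -0.08 ± 0.13 (SE).

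Of the Tcf/Lef factors, which carry the signal to target genes, tcf7 had 4.98, 4.32 and 4.49 RPKM in knockouts 1, 2 and 3 and 5.88, 5.13 and 5.97 RPKM in controls 1, 2 and 3. The groups did not overlap, and the log2 fold change was -0.26 ± 0.20 (SE, edgeR adjusted p = 0.802). The most abundant factor was tcf7l2, at 21.9, 23.7 and 26.3 RPKM in knockouts and 21.9, 33.5 and 28.5 RPKM in controls. The gene lef1 stood at 14.3 ± 0.280 RPKM in knockouts and 15.9 ± 1.37 RPKM in controls (SD, n = 3 each). The repressor gene tcf7l1a, which is mutated in headless, had 13.2, 12.4 and 15.8 RPKM in knockouts 1, 2 and 3 and 12.6, 12.5 and 11.4 RPKM in controls 1, 2 and 3. It was the only factor of the 5 with a positive log2 fold change, 0.22 ± 0.15 (SE, edgeR adjusted p = 0.779), which was 0.11 without knockout 3. Its copy tcf7l1b had a log2 fold change of -0.04 ± 0.15 (SE).

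**Figure D3:**
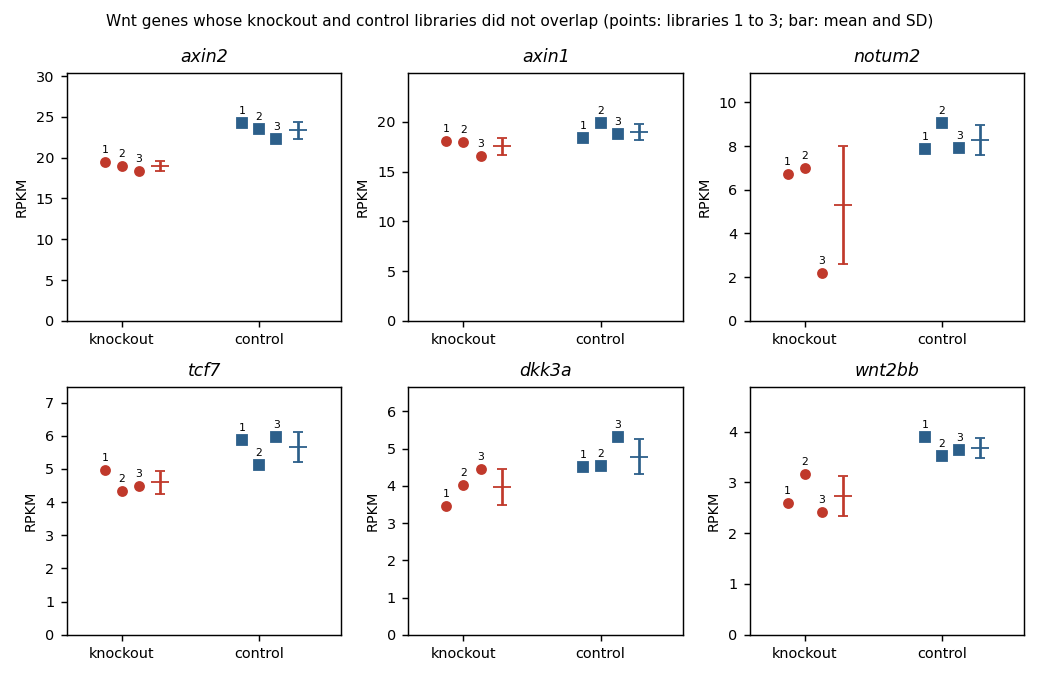
Deposited RPKM in each library (points, numbered by replicate) with mean and SD (bars beside them) for the 6 members whose knockout and control libraries did not overlap. All 6 were lower in knockouts; axin2 averaged 19.0 RPKM in knockouts and 23.4 RPKM in controls, and notum2 had 2.17 RPKM in knockout 3.

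Groups that did not overlap were thus found in 6 of the 54 tested members on the deposited RPKM scale: axin2, axin1, tcf7, notum2, dkk3a and wnt2bb. All 6 were lower in knockouts. That is 11.1% of the tested members lower, beside 9.00% of all tested genes, and 0 higher, beside 6.30%. Either way, 15.3% of all tested genes lay apart. The count depended on how libraries were scaled. On log2 CPM (counts scaled to library size) after TMM scaling, axin2, notum2 and wnt2bb still lay apart and lower (5.56% of the tested members), beside 7.44% of all tested genes, while axin1, dkk3a and tcf7 overlapped. On that scale wnt9b and tcf7l1a lay apart and higher (3.70%), beside 7.62% of all tested genes. The median of knockout over control for all tested genes was -0.042 (log2) on the deposited scale and -0.0038 in the fit.

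Knockout 3 was often the extreme library. On deposited RPKM it lay above all 5 other libraries in 18 of the 54 tested members (33.3%) and below all of them in 12 (22.2%). Over all tested genes the same held for 28.6% and 33.0%. On log2 CPM after TMM scaling it was highest in 17 members and lowest in 12, beside 30.13% and 31.85% of all tested genes. Among the ligands and receptors, those above the rest were 7 ligand genes (wnt11r, wnt9b, wnt7aa, wnt4b, wnt11, wnt7bb and wnt5a) and the receptor genes fzd2, fzd7a, fzd7b, fzd8a, fzd5 and fzd3b. Those below the rest were 5 ligand genes (wnt9a, wnt2bb, wnt1, wnt8b and wnt3a) and the receptor gene fzd3a. For wnt9b knockout 3 led narrowly, at 15.13 RPKM against 15.09 RPKM in knockout 1, and after TMM scaling knockout 1 was higher. The genes named for this library were picked after their values were seen. For fzd2 the values were 33.6, 33.5 and 55.4 RPKM in knockouts 1, 2 and 3 and 43.1, 41.7 and 36.8 RPKM in controls 1, 2 and 3. Its log2 fold change was 0.05 with all libraries and -0.23 without knockout 3 (edgeR adjusted p = 0.487). For wnt9a, wnt1, wnt8b and wnt3a, knockout 3 stood at 0.55 to 0.65 of the mean of the other libraries. For wnt1 this was 2.82, 2.66 and 1.45 RPKM in knockouts 1, 2 and 3 and 3.31, 2.46 and 1.68 RPKM in controls. The marker sums of photoreceptors, exocrine pancreas, notochord and tail bud were highest in the same library, the last mostly through ta. The epidermis sum was also highest there, at 4729 RPKM against 3473 to 4568 RPKM in the other libraries, but its markers differed. Both krt5, at 842 RPKM against 510.1 to 624.5 RPKM, and tp63 were at their highest in knockout 3. The most abundant, krt4, was not, at 3700 RPKM against 3731 RPKM in knockout 2, and cldni was at its lowest. The sum of skeletal muscle was lowest there, at 4949 RPKM against 5666 to 6561 RPKM. Most of it was mylpfa, at 3807 RPKM in knockout 3 against 4596 to 5206 RPKM in the other libraries. The muscle markers myod1 and myog were at their highest in knockout 3, and acta1b lay in between. The hatching gland sum was lowest too, at 310 RPKM, and the sums of neural progenitors and fin fold lay in between. Their part in these values was not tested.

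**Figure D4:**
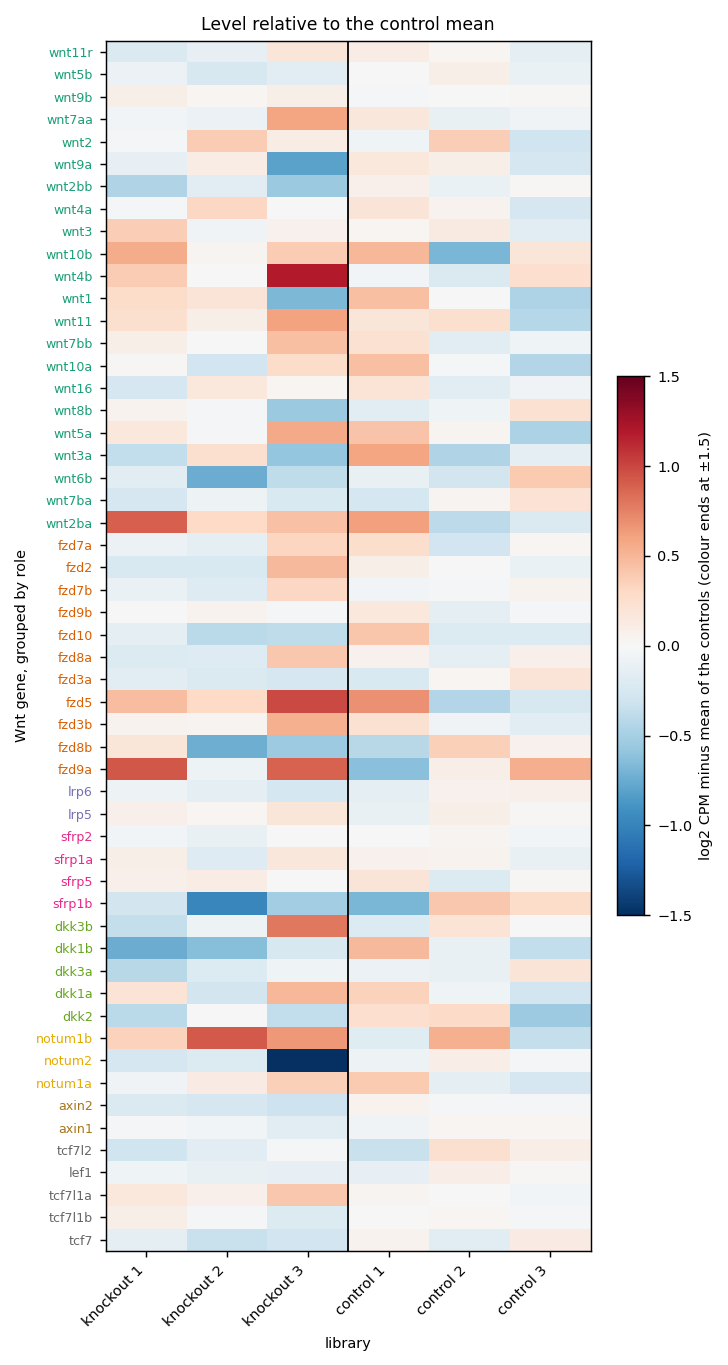
Colour gives log2 CPM after TMM scaling minus the mean of the controls, for 54 tested members (rows, grouped by role) in the 3 knockout and 3 control libraries (columns). Knockouts 1 and 2 are pale for most genes, while knockout 3 holds the deepest colours, in notum2 (low) and wnt4b (high).

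Many of these genes exist as a and b copies, and within most pairs 1 copy was the more abundant in every library. Across 12 pairs, the ratio of fzd8a to fzd8b was 6.46 to 16.6 in knockouts and 5.94 to 12.03 in controls. The ratio of fzd9a to fzd9b was 0.0464 to 0.101 in knockouts and 0.0276 to 0.0778 in controls, so here the b copy dominated. Sfrp1a exceeded sfrp1b 4.06- to 5.49-fold in knockouts and 2.40- to 5.33-fold in controls. The ratio of fzd7a to fzd7b was 1.53 to 1.58 in knockouts and 1.25 to 1.87 in controls. Ratios did not overlap between groups in 2 pairs of 12 (16.7%), beside 14.9% of 2320 pairs of genes with symbols of this form. The 2320 pairs held only tested genes above 0 RPKM in every library, whereas the 12 include wnt6a, which was not tested. The 2 Wnt pairs apart were dkk1a over dkk1b, at 0.699 to 1.07 in knockouts and 0.492 to 0.578 in controls, and tcf7l1a over tcf7l1b, at 1.74 to 2.54 in knockouts and 1.65 to 1.70 in controls. A two-sided exact permutation test gave p = 0.1 for both, the smallest p that 3 libraries against 3 allow, and a Benjamini-Hochberg adjusted p of 0.48 over the 12 pairs. Ratios that do not overlap always give this unadjusted p, so the test adds nothing to the ranges and could not pass at 0.05.

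Other genes of the pathway were read from 8 lists of 115 tested genes that do not overlap the members. None passed over all genes in either direction, and 6 had an unadjusted p under 0.05 by edgeR, beside 7.47% of all tested genes. The median log2 fold change was 0.03, with 65 positive and 50 negative. In the secretion list, wls, the carrier that brings Wnts to the surface, had 52.8, 51.6 and 49.3 RPKM in knockouts 1, 2 and 3 and 48.3, 46.8 and 51.8 RPKM in controls. The gene porcn, for the enzyme that attaches the lipid, had 4.45, 4.63 and 4.56 RPKM in knockouts and 6.80, 5.18 and 5.03 RPKM in controls (log2 fold change -0.28 ± 0.22 SE, edgeR adjusted p = 0.802). Among R-spondins, which enhance Wnt signals, rspo1 and rspo4 had log2 fold changes of 0.74 and -0.51. Among other antagonists ccdc80 had 0.53 and sostdc1b -0.41, and among alternative receptors musk had 0.55 and gpc4 0.29. The casein kinase genes csnk1da and csnk1db of the Dishevelled and destruction complex list had 0.27 and 0.30. The cofactor genes cby1 and tle3b, for a beta-catenin antagonist and a Groucho-type corepressor, had -0.36 and -0.22. Without knockout 3 the log2 fold changes were 0.46 for rspo1, -0.67 for rspo4, 0.19 for ccdc80 and -0.27 for sostdc1b. In the same fit they were 0.31 for musk, 0.089 for gpc4, 0.23 for csnk1da and 0.16 for csnk1db. There cby1 had -0.34 and tle3b -0.23.

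The polarity gene celsr3 had 6.24, 6.38 and 5.97 RPKM in knockouts 1, 2 and 3 and 7.32, 9.14 and 8.24 RPKM in controls 1, 2 and 3 (log2 fold change -0.37 ± 0.14 SE, edgeR adjusted p = 0.612). In the same list prickle1a had a log2 fold change of -0.18. The list of feedback and target genes held the other 5 of the 6 with an unadjusted p under 0.05 by edgeR. These were 5 of its 30 tested genes, beside 7.47% of all tested genes. Of them jun, myca, ascl1a and mycb were higher in knockouts and sp5a was lower. The gene sp5a, a transcription factor gene known as a Wnt target, had 2.02, 2.02 and 1.99 RPKM in knockouts 1, 2 and 3 and 2.60, 3.22 and 3.20 RPKM in controls 1, 2 and 3. Knockouts lay below all controls (log2 fold change -0.54 ± 0.20 SE, edgeR adjusted p = 0.596). Of the 30 tested genes of this list, 1 lay apart and lower on the deposited RPKM scale, beside 9.00% of all tested genes. Another 5 lay apart and higher, beside 6.30%. The growth genes jun and myca, which other pathways also induce, had log2 fold changes of 1.17 ± 0.28 and 0.60 ± 0.18 (SE, edgeR adjusted p = 0.265 and 0.428). The neurogenic gene ascl1a and mycb had 0.66 and 0.59. Without knockout 3 the log2 fold changes of jun, myca, ascl1a and mycb were 0.79, 0.40, 0.59 and 0.25. The cyclin gene ccnd1 had 46.7 ± 7.37 RPKM in knockouts and 47.0 ± 12.5 RPKM in controls (SD, n = 3 each). The genes sp5a, ascl1a, mycb and ccnd1 were named after their values were seen. The list also holds tcf3a and tcf3b, symbols now used for genes outside the pathway.

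**Figure D5:**
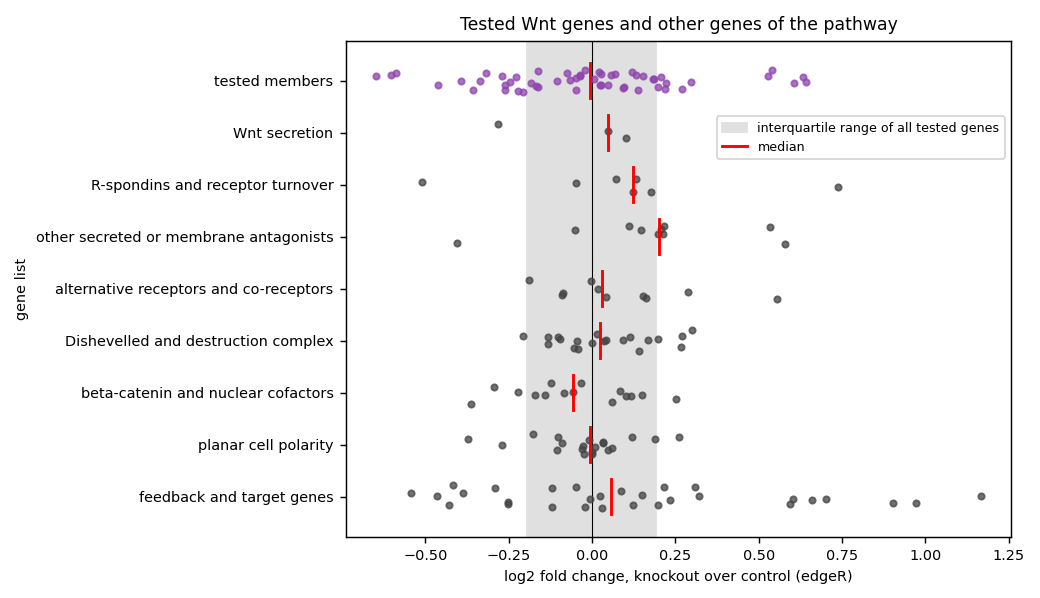
Log2 fold change of knockout over control (edgeR) for the 54 tested members and for each of 8 lists of other pathway genes; points are genes, red bars medians, and the grey band the interquartile range of all tested genes. The members centre on -0.01, and jun, at 1.17 in the feedback and target list, lies farthest out.

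Outside their symbols, the members shared annotation terms in the deposited table. Of the 58, 47 carried the term Wnt signaling pathway, which 112 genes of the table carry, and 31 carried canonical Wnt signaling pathway, of 52 in the table. Non-canonical Wnt signaling pathway was attached to 15, of 18 in the table, and sensory epithelium regeneration to 6, of 15 in the table.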

How the data were processed

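The deposited table holds whole-number read counts and RPKM per gene and library. The counts are not normalized, and the RPKM values deposited by the authors equal counts per exonic length and library total within 0.005. Per the submitters' processing notes, Trimmomatic 0.30, HISAT2 2.0.1, HTSeq 0.6.1, DESeq and the build Zv9 were used. Order, settings and strand are not given in the sources used here; reads of antisense or overlapping genes cannot be told apart. A further 6 columns of per-sample values match no sample and were not used.

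Counts were filtered with filterByExpr (20555 genes left), scaled by TMM and tested with edgeR 4.0.16 in R 4.3.3 (robust quasi-likelihood, no covariate, Benjamini-Hochberg over all tested genes, threshold 0.05). Standard errors are derived from the F statistic, and 95% intervals use its degrees of freedom. Totals were 12877132 to 18721589 reads. Named in each role were the 4 members with the smallest p, the most abundant, and those with groups apart at 1 RPKM or more; in each other list, the 2 with the smallest p. Members and lists were chosen with earlier results of these data known. As alternatives, the filter was dropped or set at a mean of 2 RPKM, TMM was replaced by DESeq2's scaling, the test by DESeq2 1.42.0, replicate numbers were added as a block, single libraries were omitted, and knockouts 1 and 2 were summed. Matching symbols in capitals was added after seeing the data. Neighbouring genes came from RefSeq's GRCz12tu table, in which 55 of 58 members matched by symbol. The planned search of promoters for Tcf/Lef motifs was not run, as no sequence was used here.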

Additional observations from a re-analysis of the deposited data

How the results depend on the processing

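No Wnt member was called under any of the 12 alternatives, nor with symbols in capitals added, and the smallest adjusted p of a member ran from 0.332 to 0.976 over the alternatives. In some alternatives wnt4b, sfrp1b, dkk1b or fzd5 had an unadjusted p under 0.05. In each alternative the share of members with such a p was below that of all tested genes. The members' share was highest without control 1, at 3.70% of 54 members beside 6.05% of all tested genes. That no member was called says little about stability where few genes are called at all. Among all genes, 24 were called, 53 with no filter and 231 with DESeq2, and 16 with knockouts 1 and 2 summed. The count ran from 0 (without control 2, with 956 genes at an unadjusted edgeR p under 0.05) to 206 (without knockout 3) when a library was left out; it was 8 without control 1 and 4 without control 3. The cause was not tested. The median log2 fold change of the members ran from -0.062 (without knockout 3) to 0.070 (without control 1). The titles do not say whether equal replicate numbers pair the samples. Deviations of same-numbered libraries correlated at -0.0587 to -0.000145. This cannot decide the question, as knockouts 1 and 2 were nearly alike and knockout 3 stood apart. With the replicate block 18 genes were called, none a member, and the members' median was -0.01. Of 344 alternative values of the 29 named members, 10 had another sign, none past the test. When a library was left out, the log2 fold change ran from -0.17 to 0.034 for wnt11r, -0.13 to 0.18 for fzd7a, -0.053 to 0.13 for sfrp1a, -0.030 to 0.17 for sfrp5 and -0.22 to 0.42 for dkk3b. With knockouts 1 and 2 summed it was 0.013 for wnt11r. Depth limits the rarest tested members, notum1b and wnt2ba, with 8 and 9 reads in their lowest libraries.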
